A study of Mus musculus with 21 samples.

Results

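This comparison set App NL-G-F knock-in (KI) against wild-type (WT) normal colon from male mice, across all genes. Its members were the 6 libraries labelled male normal colon, 3 KI and 3 WT, of 21 libraries in the series. The 21 libraries form 7 groups of 3, all from C57BL/6 mice, and total RNA was depleted of ribosomal RNA and sequenced with random hexamer priming. Both male normal groups carry the label of no treatment, while the series' design text names 2 sources of normal colon, tissue beside a tumour and tissue from mice without tumours. Which of these the 6 libraries are cannot be told from the labels. The KI mice carry the App NL-G-F alleles and the controls carry none. Female normal colon (KI and WT, no treatment) and male tumours (KI and WT, treated with AOM/DSS, a carcinogen followed by a colitis-inducing agent) serve below as sets that share no library with the 6. Age is not given in the sources used here. The labels do not say that the libraries of a group came from separate animals, so p-values measure the spread between libraries, which may be technical.

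App encodes the amyloid precursor protein, a membrane protein that is cut by alpha-secretases such as Adam10, or by the beta-secretase Bace1, and then by the gamma-secretase complex. The App NL-G-F line is a mouse model of amyloid deposition in which a humanised App is expressed from its own locus, so expression follows the App promoter in every tissue that uses it, colon included. The normal colon wall holds absorptive colonocytes, mucus-secreting goblet cells, smooth muscle, nerves and immune cells, and a bulk library sums them all. In bulk libraries, fewer cells of a type and less RNA per cell cannot be told apart.

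Total counts of the 6 libraries ran from 10486463 to 20944610. Library numbers in the labels were 108 to 110 for WT and 129, 130 and 132 for KI, so the order of the libraries and the genotype cannot be told apart. The tissue label matched the markers: Muc2, the main goblet cell mucin, was at 4485 to 12450 CPM (counts of a gene relative to the TMM-scaled library total) in the 6 libraries, and Slc26a3, a colonocyte anion exchanger, was at 176 to 1011 CPM. Pairs of libraries of 1 genotype correlated at r = 0.958 to 0.968 on log2 CPM over all tested genes, and pairs across genotypes at 0.952 to 0.981, and the ranges overlapped. Replicate 1 of each genotype stood apart in squamous keratins, the keratins of stratified rather than colonic epithelium. Krt5 was at 223 CPM in WT replicate 1 and 241 in KI replicate 1, and at 0.374 to 0.760 in the other 4 libraries. Rn45s, the ribosomal RNA precursor left after depletion, took 6.67% ± 1.69 of counts in WT and 9.49% ± 4.02 in KI (SD, n = 3 each; exact permutation test, two-sided, p = 0.5, smallest possible 0.1), and KI replicate 3 was highest at 14.1%.

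App, the engineered gene, was checked first. App (chr16:84952666-85175255) was at 752, 676 and 634 CPM in WT and at 708, 489 and 522 CPM in KI. The ranges overlapped, and the log2 fold change was -0.26 (SE 0.16, unadjusted p = 0.121). Counts per gene do not separate knock-in from wild-type App sequence, so this value does not check the genotype label.

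To assess which genes differ between KI and WT normal male colon, all 15936 genes with sufficient counts were tested. Only 2 genes passed an adjusted p of 0.05, 0.0126% of those tested. Agt rose in KI (0.00628% of genes called higher) and Wdfy1 fell (0.00628% called lower). An unadjusted p under 0.05 was reached by 532 genes (3.34%), 275 higher (1.73%) and 257 lower (1.61%), and the CPM of 1128 genes (7.08%) did not overlap between genotypes, 598 higher (3.75%) and 530 lower (3.33%). The median log2 fold change over all genes was 0.00059, with 50.1% of genes positive. By comparison, the same fit called 2545 genes (16%) between genotypes in female normal colon and 2315 (14.5%) in male tumours.

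**Figure D1:**
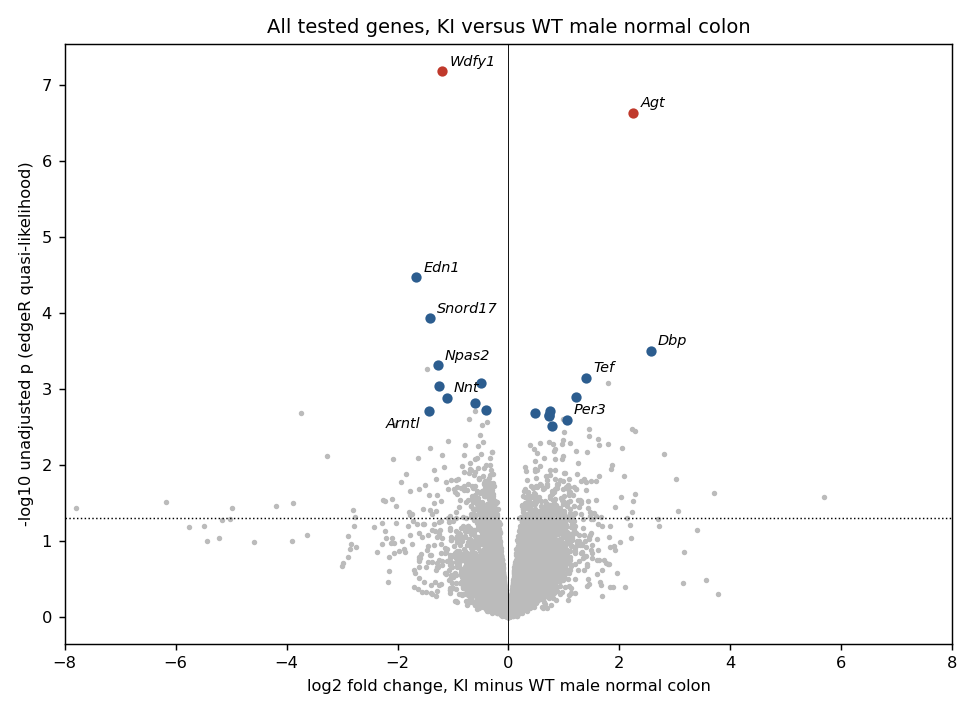
Log2 fold change (KI minus WT, x axis) against -log10 of the unadjusted p (y axis) for each of the 15936 tested genes in male normal colon. Red points are the 2 genes past an adjusted p of 0.05, blue points the other genes named by the rule for the top 10 in each direction, and the dotted line is an unadjusted p of 0.05.

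Agt encodes angiotensinogen, the precursor of all angiotensin peptides, best known as a product of liver. It lies at chr8:124556587-124569706 (GRCm38, the build called mm10). Agt was at 7.56, 11.2 and 14.3 CPM in the 3 WT libraries and at 46.6, 32.3 and 76.9 CPM in the 3 KI libraries. Every KI library was above every WT library. The fitted difference was 4.76-fold, or 2.25 on the log2 scale with a standard error (SE) of 0.28, and its adjusted p was 0.00184. In female normal colon the log2 fold change was 3.33 (adjusted p = 7.59e-06) and in male tumours it was 1.68 (adjusted p = 0.0041). KI was above WT in all 3 libraries of each of these sets as well. The difference between sexes was 1.08 on the log2 scale (adjusted p = 0.154) and that between tumour and normal colon was -0.57 (adjusted p = 0.376), neither past the threshold.

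Wdfy1 encodes a FYVE- and WD40-domain protein of early endosomes that acts as an adaptor for the receptors TLR3 and TLR4. It lies at chr1:79702262-79776143. Wdfy1 was at 57.8, 67.3 and 72.4 CPM in WT and at 29.5, 26.02 and 30.6 CPM in KI. The highest KI library was far below the lowest WT library. The fitted level was 2.29-fold lower in KI, at -1.20 ± 0.14 on the log2 scale (SE), with an adjusted p of 0.00105. It was -1.32 in female normal colon (adjusted p = 2.75e-05) and -0.92 in male tumours (adjusted p = 0.0035). The difference from the male normal value was not past the threshold for sex (adjusted p = 0.788) or tissue (adjusted p = 0.385).

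Both calls rest on a spread estimated over all 21 libraries. With the 6 male normal libraries alone the log2 fold changes were 2.25 for Agt and -1.19 for Wdfy1, but 0 genes passed in edgeR (Agt adjusted p = 0.999, Wdfy1 0.362), with 361 at an unadjusted p under 0.05. The Agt call was also lost with the normal colon libraries alone (adjusted p = 0.14) and with replicate 1 of both genotypes left out (0.0675).

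**Figure D2:**
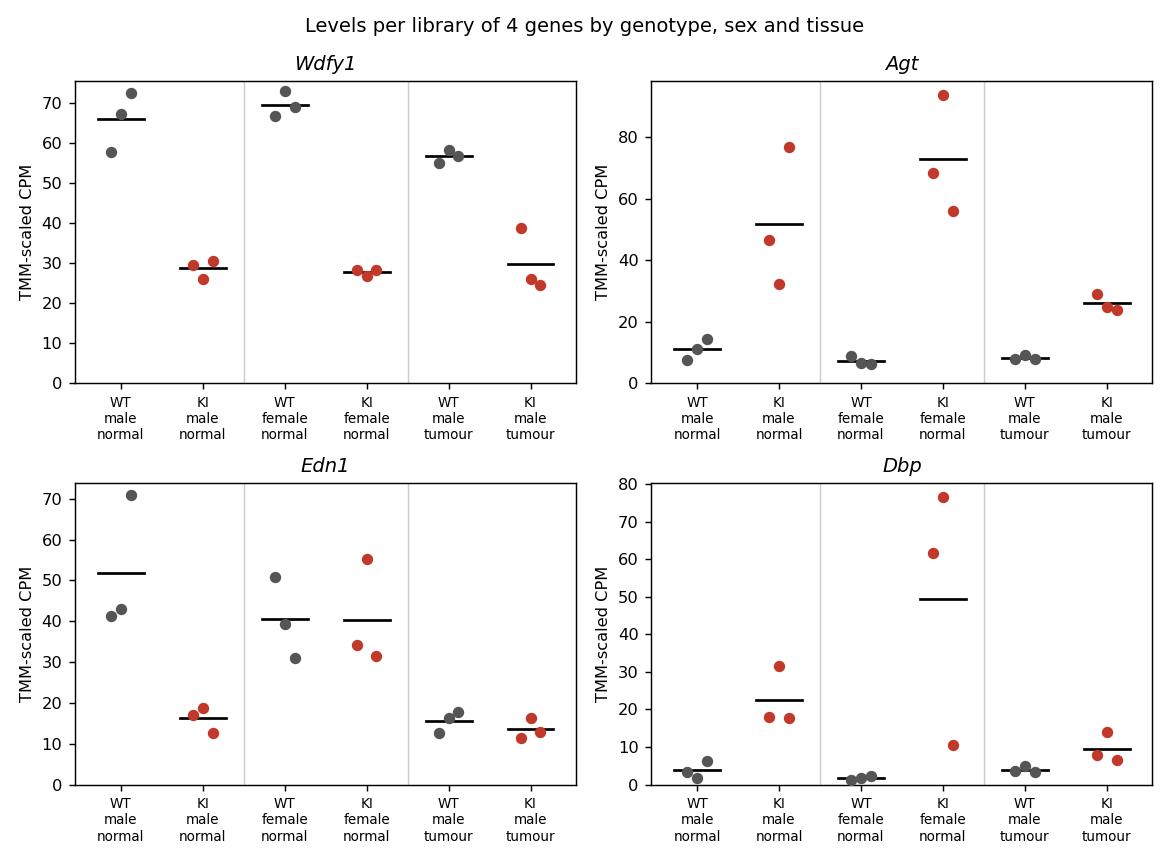
TMM-scaled CPM (y axis, linear from 0) of Wdfy1, Agt, Edn1 and Dbp in each library of 6 groups, with KI in red, WT in grey and the group mean as a bar. Wdfy1 is lower and Agt higher in KI in each of the 3 sets, whereas Edn1 separates the genotypes in male normal colon and not in the others.

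The upstream sequence of Agt is shown because it was the called gene that rose, and that of Tef because it stands among the circadian output genes described below. Both were chosen after their values were seen. The sequences are the 250 bases before the annotated start in RefSeq on GRCm38.p6, written 5′ to 3′ on the gene's strand, and Tef has 2 annotated starts. Capitals mark TATAAA, the TATA box, in Agt (chr8:124569707-124569956, minus strand) and CACGTG, the E-box bound by clock factors, in Tef (chr15:81802423-81802672 and chr15:81811164-81811413, plus strand).
Agt: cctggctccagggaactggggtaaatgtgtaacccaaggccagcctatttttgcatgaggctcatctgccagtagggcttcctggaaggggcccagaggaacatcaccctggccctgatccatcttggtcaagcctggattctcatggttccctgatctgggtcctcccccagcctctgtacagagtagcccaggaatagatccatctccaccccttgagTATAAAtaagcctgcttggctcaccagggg
Tef, first start: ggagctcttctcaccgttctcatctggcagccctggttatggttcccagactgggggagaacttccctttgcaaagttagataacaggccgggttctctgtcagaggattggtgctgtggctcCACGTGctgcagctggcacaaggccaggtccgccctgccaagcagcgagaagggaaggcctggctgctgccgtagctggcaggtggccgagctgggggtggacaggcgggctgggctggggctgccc
Tef, second start: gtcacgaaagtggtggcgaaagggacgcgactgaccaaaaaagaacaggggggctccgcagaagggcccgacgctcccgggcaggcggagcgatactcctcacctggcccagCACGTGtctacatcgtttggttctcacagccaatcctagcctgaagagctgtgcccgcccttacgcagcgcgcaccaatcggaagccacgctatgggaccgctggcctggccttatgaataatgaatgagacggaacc
On either strand, TATAAA occurs in 12.4% of 32851 windows of the same kind and CACGTG in 6.02%. TTATGTAA, the D-box bound by Dbp and Tef proteins, occurs in 0.819% and was in none of these 3. The motifs do not overlap one another in these windows. The same window of Dbp held none of the 3 motifs. These matches describe letters only.

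Of 27 genes of App processing tested, 0 passed the adjusted threshold, 14 were positive and 13 negative, and the median log2 fold change was 0.01. The beta-secretase Bace1 was at 59.4 to 63.0 CPM in WT and 52.5 to 65.8 in KI (log2 fold change -0.02), and the alpha-secretase Adam10 was at -0.07. Among gamma-secretase subunits, Ncstn was at -0.00, Aph1a at 0.01 and Psenen at -0.01. Ide, a protease that degrades amyloid beta and insulin, was at -0.80 (SE 0.31, unadjusted p = 0.0191), with WT replicate 2 at 64.3 CPM inside the KI range of 48.0 to 69.1. The 19 other tested genes within 5 Mb of App, a window chosen after the data were seen, had a median of -0.08 and 0 adjusted calls. One of the 2 that reached an unadjusted p under 0.05 was Cldn8, a claudin that seals tight junctions of the distal colon. Cldn8 was at 138, 174 and 199 CPM in WT and 86.2, 107 and 79.2 in KI without overlap (log2 fold change -0.91, SE 0.34). It was at -1.01 in female normal colon (adjusted p = 0.0499) and at 1.16 in male tumours (adjusted p = 0.0383), and the tumour minus normal difference of 2.07 passed the threshold (adjusted p = 0.0474).

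No other member of the angiotensin system passed the adjusted threshold. Of 21 members tested, Agt was the 1 called gene, and 15 members were negative, with a median of -0.10. Renin cleaves angiotensinogen, and Ren1 had 0 counts in all 6 libraries, which allows at most 0.142 to 0.298 CPM in each (3 counts of the scaled total, counting error only). Ace, which makes angiotensin II, was at 63.0 to 78.3 CPM in WT and 57.9 to 71.5 in KI (log2 fold change -0.09). The angiotensin II receptor Agtr1a was at 0.841 to 4.68 CPM in the 6 libraries (-0.47). Its paralog Agtr1b was at 1.31 to 4.08 CPM (-0.72). The log2 fold change of Agtr1b was 3.33 in male tumours (adjusted p = 0.00422). The tumour minus normal difference of 4.05 passed the threshold (adjusted p = 0.0406, 1.51% of genes called). In the WT tumours Agtr1b was at 0.0921 to 0.291 CPM, so both values rest on few counts. Nln, a peptidase that cleaves angiotensin I, was at -0.21 (unadjusted p = 0.0311). Among the 18 members of the Wdfy family and the TLR3 and TLR4 adaptor pathway, Wdfy1 was likewise the 1 called gene. Its relatives Wdfy2 and Wdfy3 were at 0.04 and -0.02, the receptors Tlr3 and Tlr4 at -0.07 and -0.09, and the adaptor Ticam1 at 0.02. Wdfy4, known from dendritic cells, was at 0.78 (SE 0.43).

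Behind Agt and Wdfy1 came 18 further genes with the smallest unadjusted p among those without overlap, and none of them passed the adjusted threshold. Edn1 (chr13:42301476-42307990), which encodes the vasoconstrictor peptide endothelin-1, was next. Edn1 was at 41.2, 42.9 and 70.9 CPM in WT and at 17.1, 18.8 and 12.7 CPM in KI. All KI libraries lay at less than the lowest WT value, and the log2 fold change was -1.67 (SE 0.30, adjusted p = 0.18). It was -0.02 in female normal colon and -0.19 in male tumours, and the difference between the sexes, 1.65, passed the threshold (adjusted p = 0.0447; 2.54% of genes called). In the WT and KI male tumours Edn1 was at 11.4 to 17.9 CPM. Snord17, a small nucleolar RNA, was at 90.3, 59.5 and 67.4 CPM in WT and 36.9, 25.8 and 18.7 in KI (log2 fold change -1.42, adjusted p = 0.467). Its gene lies inside Snx5, so its counts may hold reads of that transcript. In the authors' deposited table of this comparison, 6 of 17836 genes with an adjusted p passed 0.05: Agt, Dbp, Wdfy1, Edn1, Snord17 and Npas2.

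Of the 10 higher and 10 lower genes chosen by p without overlap, 3 are in the list of circadian output genes (Dbp, Tef and Nr1d2). Per3, Arntl and Npas2 are outside that list and are described with them here after their values were seen. The circadian clock runs on the activators Arntl and its partners Clock or Npas2, which drive the period genes and the nuclear receptors Nr1d1 and Nr1d2, and it passes time on through the transcription factors Dbp, Tef and Hlf. Dbp was at 3.45, 1.87 and 6.27 CPM in WT and at 17.9, 31.5 and 17.7 in KI, without overlap (log2 fold change 2.56, SE 0.57, adjusted p = 1). Tef was at 37.0, 21.3 and 47.6 CPM in WT and 80.5, 113.8 and 85.3 in KI (log2 fold change 1.40). All KI libraries exceeded all WT libraries for both genes. Per3, a period gene, was at 28.3 to 54.8 CPM in WT and 64.6 to 96.7 in KI (1.05). On the activator side, Arntl was at 58.6, 61.9 and 77.8 CPM in WT and 19.3, 21.2 and 32.6 in KI (-1.44). Npas2 was at 68.9, 78.6 and 88.7 CPM in WT and 34.2, 21.5 and 41.8 in KI (-1.28). Each of these genes was chosen for having no overlap between genotypes. That every KI library lay on 1 side of the WT libraries for each gene is therefore fixed by the choice.

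Of 10 circadian output genes listed, 9 were positive, 4 were higher at an unadjusted p under 0.05 (Dbp, Tef, Nr1d2 and Ciart; 1.73% of all genes) and 0 passed the adjusted threshold. The values of Dbp, Tef and Nr1d2 also chose them among the 20 genes above. Their median log2 fold change was 0.73, against 0.00059 over all genes, and 0.50 without KI replicate 2, the library highest in Dbp and Tef. Their summed level was 321 to 454 CPM in WT and 519 to 662 CPM in KI (exact permutation test, two-sided, p = 0.1, the smallest that 3 against 3 allows). Of the 33 gene lists, 2 reached this p, and a p of 0.1 is not rare among 33 lists. The other was the list of genes that differ between C57BL/6 substrains, with sums of 121.7 to 146.1 CPM in WT and 90.25 to 117.5 in KI. It holds Nnt, which is also among the 20 genes chosen for having no overlap. Neither sum is therefore separate support for a genotype difference. Nfil3, which represses the targets of Dbp, was the 1 negative member of the circadian output list at -0.50. In female normal colon Dbp was at 4.89 (adjusted p = 0.000216), Tef at 2.61 and Nr1d2 at 1.54. Within the female KI libraries Dbp varied from 10.5 to 76.6 CPM. In male tumours Nr1d2 was at 0.83 (adjusted p = 0.0292), and Dbp at 1.31 was not past the threshold (0.132). The time of day at which tissue was taken is not given in the sources used here, and its part in these values was not tested.

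Among the remaining genes of the 20, Nnt, the mitochondrial transhydrogenase that makes NADPH, was at 68.6, 65.9 and 83.2 CPM in WT and 44.0, 30.0 and 26.4 in KI (log2 fold change -1.12, SE 0.29, adjusted p = 1). It was listed among 6 genes known to differ between C57BL/6 substrains, 5 of which were tested, with a median of -0.15. Cyfip2 was at 0.68 (unadjusted p = 0.102), and the ranges of Cyfip2, Nlrp12 and Mmrn1 overlapped between genotypes. In the female KI libraries Nnt ranged from 28.7 to 59.7 CPM and in KI tumours from 23.0 to 58.3. Slc34a2, a phosphate transporter, was at 45.0 to 88.7 CPM in WT and 24.9 to 27.6 in KI (-1.25). It was at -1.40 in female normal colon (adjusted p = 0.00685). Hsdl2, a peroxisomal dehydrogenase, was at 20.0 to 23.6 CPM in WT and 14.4 to 14.5 in KI (-0.60). Gfer, an oxidase of mitochondrial protein import, was at -0.49 and Arl4a, a small GTPase, at -0.40. On the higher side were Matk (1.21), a kinase related to Csk, and Mvd (0.74), an enzyme of the mevalonate pathway. Tspan4 (0.74), Ccdc116 (0.72) and Pcyt2 (0.48), an enzyme of phosphatidylethanolamine synthesis, completed them.

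**Figure D3:**
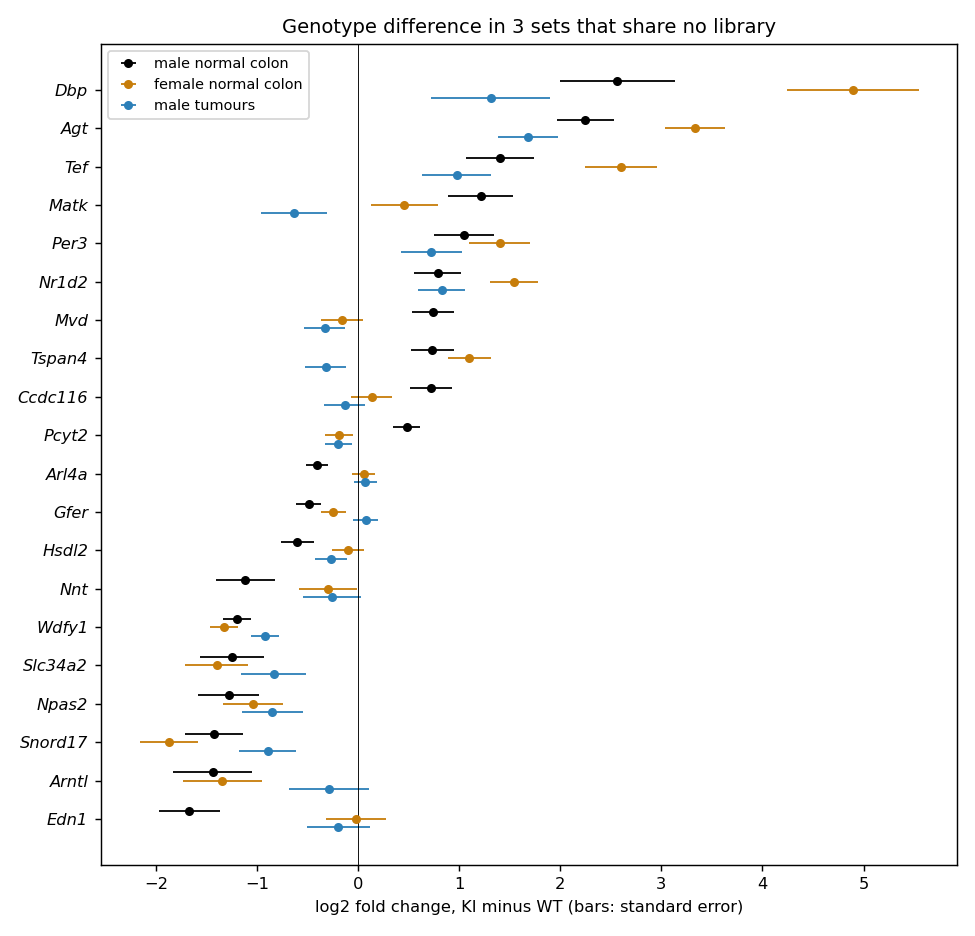
Log2 fold change, KI minus WT (x axis, bars are 1 SE), of the 10 higher and 10 lower genes chosen in male normal colon (black), with the same genes in female normal colon (orange) and male tumours (blue). The black values chose the genes. Agt, Dbp, Tef, Per3 and Nr1d2 lie to the right of 0 in all 3 sets, and Wdfy1, Edn1, Snord17, Npas2, Arntl, Slc34a2, Nnt and Hsdl2 to the left.

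The values of these 20 genes were then read in the sets that share no library with male normal colon. In both sets, too, all KI library numbers in the labels were above all WT library numbers. The order of the libraries and the genotype cannot be told apart there either. Of the 10 higher genes, 8 had the same sign in female normal colon and 6 passed the adjusted threshold there (8.97% of all genes called higher). Of the 10 lower genes, 9 had the same sign and 5 passed (7% called lower). Dbp, Tef, Per3, Nr1d2, Arntl and Npas2 were among those that passed. They belong to 1 clock, so they are not independent. In male tumours the counts were 5 and 2 of the higher genes (9.3% called higher) and 8 and 2 of the lower genes (5.23% called lower). No gene passed with the opposite sign in either set. Over the 532 genes at an unadjusted p under 0.05, 105 were called in female normal colon, which is 19.7% of the 532, against 16% of all genes called there, and 4.13% of the 2545. Of these 105, 81 had the same sign and 24 the opposite sign. In male tumours 76 were called, 34 with the same sign and 42 with the opposite sign. These were 14.3% of the 532, close to the 14.5% of all genes called there, and 3.28% of the 2315. In all, 7 genes (0.0439%) reached an unadjusted p under 0.05 here and an adjusted p under 0.05 with the same sign in both other sets. They were Wdfy1, Agt, Snord17, Nr1d2, Slc2a5, Hist1h4n and Eln. Slc2a5, a fructose transporter, was at 1.36, 2.53 and 2.64 in male normal colon, female normal colon and tumours. Slc2a5 had 7 to 55 counts in the 6 male normal libraries and was at 0 to 0.288 CPM in WT male tumours. Its values there rest on few counts. In the same order of sets Eln, which encodes elastin, was at 0.78, 1.35 and 1.62. Hist1h4n, a histone H4 gene, was at -0.85, -1.36 and -1.40, and histone H4 genes have near-identical copies, so its counts are uncertain.

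Tests of the difference between sets asked where the male normal effect departs from the others. The genotype effect differed by sex for 405 genes (2.54%), 281 with a positive female minus male difference (1.76%) and 124 with a negative one (0.778%). The male normal values of the genes named by this test ran from -0.12 to 0.32. Ltbp4, a matrix protein that binds latent TGF-beta, was at 0.01 in male and 2.31 in female normal colon. The protease inhibitor Timp2 was at -0.12 and 1.86, and the sialomucin Podxl at -0.12 and 1.58. The WT female group stood apart for these genes. Ltbp4 averaged 82.3 CPM there, against 354 in WT male, 355 in KI male and 408 in KI female normal colon. Timp2 averaged 45.1, 137, 127 and 164 CPM in the same order, and Podxl 12.5, 41.9, 38.5 and 37.1 CPM. Spink3, a trypsin inhibitor, was at 0.32 and -2.08, the potassium channel Kcnk6 at 0.31 and -1.36, and Fam98a at 0.10 and -0.54. Spink3, Kcnk6 and Fam98a had their highest normal colon mean in WT females and their lowest in KI females. The count by sex was 111 without WT replicate 1 and 148 without KI replicate 2. Between male tumours and normal colon the effect differed for 240 genes (1.51%), 181 with a positive tumour minus normal difference (1.14%) and 59 with a negative one (0.37%). Kcnma1, a calcium-activated potassium channel of smooth muscle, was at 0.21 in normal colon and 1.70 in tumours, and Scn7a, a sodium channel, at -0.12 and 1.74. Csf1, a macrophage growth factor, was at 0.07 and -1.08. This count was not stable: it was 0 without WT replicate 3, without KI replicate 1 or without KI replicate 3, 134 without WT replicate 1, 416 without WT replicate 2 and 2104 without KI replicate 2.

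Gene lists were then used to describe the tissue. Of 33 lists, 20 had a median log2 fold change within 0.2 of 0. Colonocyte genes had a median of -0.36 over 20 tested, with 17 negative. Aqp8, a water channel, was at 80.1, 79.8 and 243 CPM in WT and 42.4, 48.9 and 70.5 in KI (-1.31), and the cytochrome Cyp2c55 was at 165, 237 and 742 CPM in WT and 85.4, 88.4 and 92.4 in KI (-2.10). WT replicate 3 was the highest library for both, and it was highest for the summed colonocyte level, 9080 CPM against 4195 to 5411 in the other 5. Without WT replicate 3 the median of the list was 0.01. Goblet cell genes had a median of 0.17, and Clca1, a secreted mucus protein, was at 7.0 to 16.5 CPM in WT and 14.9 to 23.4 in KI (0.67, unadjusted p = 0.0298). The goblet median was -0.09 without WT replicate 1. Smooth muscle, enteric glia, endothelium, heat shock, ribosomal protein and respiratory chain lists were among those with 0 genes at an unadjusted p under 0.05. Over all genes 3.34% reached it, and at that share lists this short can hold 0. The smooth muscle sum ran from 3656 to 12010 CPM in WT and from 5839 to 10110 in KI, so the level of these genes varied within a genotype.

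**Figure D4:**
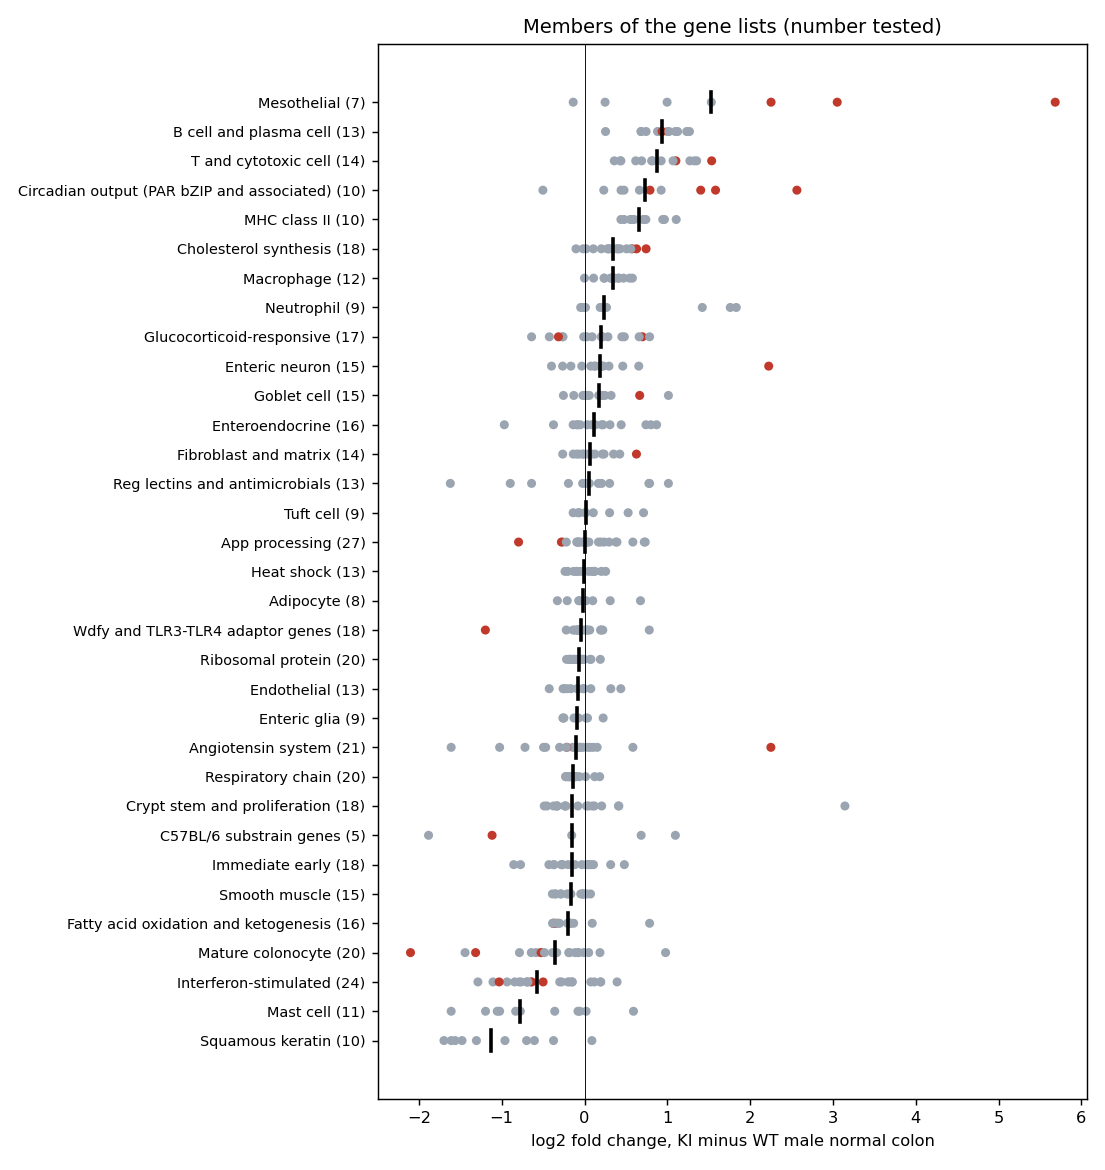
Log2 fold change, KI minus WT (x axis), of each tested member of the 33 gene lists, with the number tested in brackets and the list median as a black bar. Red points have an unadjusted p under 0.05. Medians run from -1.13 for squamous keratins to 1.53 for mesothelial genes.

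Lymphocyte and antigen presentation genes lay on the positive side, and 0 were called. Of 13 B cell and plasma cell genes, all 13 were positive (median 0.94). Of 14 T and cytotoxic cell genes, all 14 were positive (median 0.87). Of 10 MHC class II genes, all 10 were positive (median 0.65). Without KI replicate 2 the medians were 0.37, 0.68 and 0.0026 in the same order, and without WT replicate 1 they were 1.82, 1.33 and 1.02. In female normal colon they were 1.42, 0.59 and 1.64, with 1, 0 and 6 genes called (16% of all genes), and in male tumours -0.06, -0.38 and -0.49. The B cell antigen receptor subunit Cd79a was at 12.6, 3.14 and 4.48 CPM in WT and 15.7, 25.4 and 7.17 in KI. The kinase Lck was at 4.01, 3.29 and 1.29 CPM in WT and 4.11, 7.28 and 7.43 in KI (1.10, unadjusted p = 0.0302). Gzmb, a granzyme, was at 0.10 to 1.04 CPM in WT and 1.38 to 2.43 in KI. These Gzmb values rest on few counts, 22, 10 and 1 in WT and 26, 33 and 16 in KI. Cd74, the class II invariant chain, was at 553, 339 and 214 CPM in WT and 389, 923 and 331 in KI. KI replicate 2 was the highest library for Cd74 and Cd79a, and the ranges overlapped. The summed levels overlapped for all 3 lists (exact permutation p = 0.2, 0.2 and 0.5). Genes of a list share cells, so members are not independent, and the share of lymphoid follicle in each library was not tested.

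Interferon-stimulated genes lay on the negative side, 19 of 24 with a median of -0.57 and 0 called. Rsad2, an antiviral enzyme, was at 10.1, 10.9 and 8.65 CPM in WT and 4.95, 5.57 and 3.98 in KI, without overlap (-1.03, unadjusted p = 0.0161). Irf7, a transcription factor of the interferon response, was at -0.64 and Oas1a, an antiviral RNA sensor, at -0.50. The list sum was 624 to 858 CPM in WT and 407 to 854 in KI, and KI replicate 2 lay inside the WT range. The median was -0.17 without WT replicate 1 and -0.30 without KI replicate 3. In female normal colon the list median was 0.04 and in male tumours -1.19.

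In 2 lists of lipid metabolism, 0 genes were called. Of 18 cholesterol synthesis genes, 16 were positive (median 0.35). Mvd was at 23.7, 29.6 and 15.9 CPM in WT and 40.2, 33.4 and 42.7 in KI, and Lss, which closes the sterol rings, was at 34.7, 33.7 and 23.2 in WT and 54.4, 47.7 and 39.9 in KI. Neither overlapped between genotypes. WT replicate 3 was the lowest library in the list sum, 1605 CPM against 2088 to 2707 in the other 5, and without it the median was 0.15. The median of the list was -0.31 in female normal colon, with Mvd at -0.16, and 0.36 in male tumours. Of 16 genes of fatty acid oxidation and ketogenesis, 14 were negative (median -0.20), among them Cpt2 and Cpt1a, the carnitine transferases, at -0.37 and -0.34. WT replicate 3 was the highest library, with a list sum of 1946 CPM against 1268 to 1376 in the other 5, and without it the median was -0.02. Cpt1a was at 217, 253 and 386 CPM in WT and at 233, 240 and 202 in KI, and at -0.06 without WT replicate 3.

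**Figure D5:**
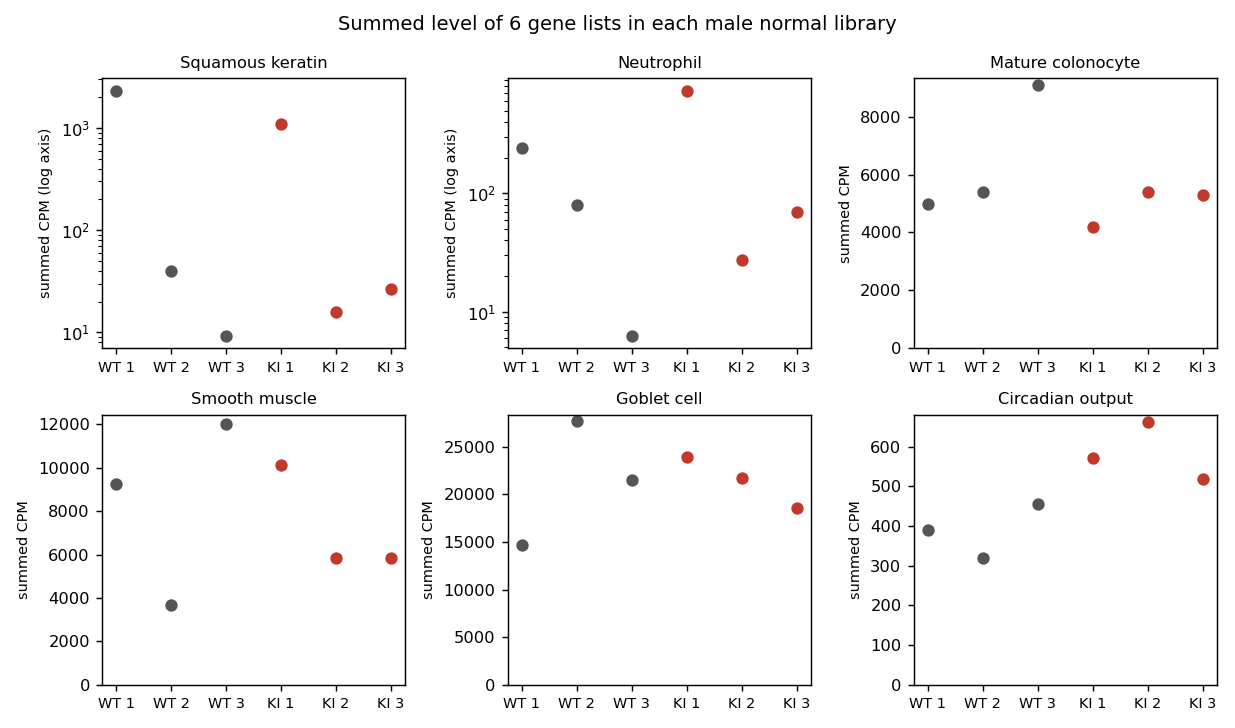
Summed TMM-scaled CPM of 6 gene lists in each of the 6 male normal libraries (WT grey, KI red, replicates 1 to 3). Squamous keratin and neutrophil panels have a log axis and the other panels a linear axis from 0; replicate 1 of both genotypes is highest in the first 2, and the circadian output sums do not overlap.

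Markers of other tissues differed between libraries more than between genotypes. The summed level of 10 squamous keratin genes was 2315, 40.1 and 9.25 CPM in WT and 1095, 15.9 and 26.7 CPM in KI. With replicate 1 of both genotypes left out, Wdfy1 was the 1 gene that passed. The neutrophil sum was 736 CPM in KI replicate 1, 242 in WT replicate 1 and 6.27 to 79.2 in the other 4. Mesothelial genes had a median of 1.53 over 7 tested, but Upk3b, a mesothelial uroplakin, was at 4.75 CPM in KI replicate 2 and at 0 to 0.093 in the other 5 libraries. Without KI replicate 2 the median was 0.54. Mast cell genes had a median of -0.78, or 0.42 without WT replicate 1.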

How the data were processed

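RNA-seq counts per gene were deposited for 21 libraries. Per the submitters' processing notes, Trimmomatic, HISAT2, featureCounts and DESeq2 were used with mm10. Versions, annotation and strand setting are not given in the sources used here, so antisense and overlapping genes cannot be separated. The authors' deposited table also gives log2 fold changes and adjusted p-values for each comparison; they are quoted only where named. One female KI column name occurs on 2 count columns, which were used as unnumbered libraries of that group.

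From the counts, edgeR 4.0.16 (R 4.3.3) was run on all 21 libraries with 1 coefficient per group: TMM scaling, filterByExpr (15936 of 24062 genes), the robust quasi-likelihood F test, two-sided, and Benjamini-Hochberg adjustment at 0.05. The standard error is the log2 fold change divided by the square root of F. Log2 CPM for correlations used a prior count of 2. Total counts of the 6 libraries were 10486463 to 20944610, and the common biological coefficient of variation was 23.0%. Library pairs of 1 genotype differed beyond sampling noise (chi-square per degree of freedom 27.8 to 63.4), so no pair was counted as a repeat deposit of 1 library; this does not show that they came from separate animals. The statistics were tested on simulated data. Alternatives used limma 3.58.1 and DESeq2 1.42.0, other scalings, filters and sets of libraries.

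Named genes were App, every called gene, the 10 higher and 10 lower genes with the smallest p (mean of at least 50 counts in 1 group, no overlap of CPM, no predicted, ribosomal or mitochondrial symbol), up to 4 members of each of 33 lists, genes recurring in both other sets, and up to 3 genes a direction for each difference of effects. Other list members and marker genes were chosen after their values were seen. The members and lists were chosen with earlier results of these data known. Sequences and coordinates are from RefSeq on GRCm38.p6, the assembly that mm10 denotes. Values of 3 list members are not reported here, though the counts and medians of their lists include them.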

Additional observations from a re-analysis of the deposited data

Results flagged for a closer look

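The genotype effect in female normal colon differed from that in male normal colon, by a test of the difference itself, for 12 of the genes given by value. As female minus male log2 differences these were 1.65 for Edn1, 1.70 for Podxl, 1.98 for Timp2, 2.31 for Ltbp4 and 1.23 for Csf1. They were -2.21 for Clca1, -1.68 for Kcnk6, -0.65 for Fam98a and -2.40 for Spink3. Podxl, Timp2, Ltbp4 and Csf1 each had their lowest normal colon mean in WT females. Csf1 averaged 9.43 CPM there, and 26.6, 28.1 and 23.3 CPM in WT male, KI male and KI female normal colon. The mesothelial genes Upk3b (-14.57), Wt1 (-6.03) and Lrrn4 (-8.74) rest on few counts, so these fitted values are no bounds.

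The genotype effect in male tumours differed from that in male normal colon for 10 of the genes given by value. As tumour minus normal log2 differences these were 1.08 for Acadm, 1.36 for Cpd, 1.49 for Kcnma1, 1.86 for Scn7a, 2.07 for Cldn8 and 4.05 for Agtr1b. Cldn8 and Agtr1b were chosen after their values were seen. Agtr1b was at 0.0921 to 0.291 CPM in WT tumours, so its difference rests on few counts. The differences were -1.85 for Matk, -1.29 for Fam189a1, -2.36 for H2afy2 and -1.15 for Csf1. Csf1 differed in both tests. The calls by tissue were not stable. With WT male normal replicate 3, KI male normal replicate 1 or KI male normal replicate 3 left out singly, 0 genes were called.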

How the results depend on the processing

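In male normal colon, 2 genes were called with each single library left out (2 to 2). The count became 6 with DESeq2, 0 with the 6 libraries alone, 1 with the normal colon libraries alone and 1 without replicate 1 of both genotypes, the last chosen after seeing the data. Agt passed in 15 of 18 alternatives and Wdfy1 in 17 of 18. Lrrn4 turned to -0.30 with the 6 libraries alone. By sex, the 405 genes became 920 with DESeq2, 1093 with limma voom, 254 with normal colon alone and 134 without replicate 1 of both genotypes, and 111 to 594 with 1 library left out. By tissue, the 240 genes became 95 with no low-count filter, 408 with a mean of at least 50 counts, 1326 with DESeq2, 1151 with limma voom, 405 without libraries numbered 152 and above, 0 without replicate 1 of both genotypes, and 0 to 2104 with 1 library left out. Causes of these shifts were not tested. Same-numbered libraries did not pair throughout (r of deviations 0.46, -0.21 and -0.07). KI replicate 1 was the closest match of WT replicate 1, whereas WT replicates 2 and 3 were closest to KI replicates 3 and 2. With a replicate block the counts were 3 in male normal colon and 0 by tissue; no blocked fit by sex could be made, because KI female columns lack numbers.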
